A study of Homo sapiens with 18 samples.

Results

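This account describes how untransduced H1 cells, an established human embryonic stem cell line, differed between embryoid bodies at day 6 and the pluripotent state. It uses the 6 arrays of the 18 in the series that carried no lentivirus, 3 of embryoid bodies and 3 of pluripotent cells. The embryoid bodies were formed in AggreWell plates and kept in APEL medium for 6 days. The pluripotent cells grew without feeders on Matrigel in mTeSR1. Total RNA was hybridised to Affymetrix Human Gene 1.0 ST arrays, which read a gene through probes spread over its exons. The remaining 12 arrays carried a control shRNA or an shRNA against KBTBD8, an adaptor of the CUL3 ubiquitin ligase, and the control shRNA arrays are used only for 1 comparison near the end. The design text speaks of independent samples without saying that they were separate cultures, so p-values measure the spread between samples, which may be technical.

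Embryoid bodies are aggregates in which pluripotent cells leave self-renewal and enter early lineages. In the absence of strong NODAL and BMP signals human pluripotent cells tend toward neural ectoderm, and anterior neural cells are recognised by transcription factors of the eye field and forebrain such as PAX6, SIX3 and LHX2. Leaving pluripotency toward neural ectoderm is also accompanied by the loss of an epithelial surface rich in E-cadherin and EPCAM and of the miR-302 family of microRNAs.

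The microRNA genes on which the results turn are shown by their mature sequences, taken from RefSeq (GRCh38.p14) and written 5′ to 3′, with the seed, bases 2 to 8, in capitals. The first pair shares 1 seed, that of the pluripotent cell family, and the second pair shares the let-7 seed, which is associated with differentiated cells. The last sequence is that of a microRNA that restrains ZEB1 and ZEB2. The mature miR-302a-3p and miR-302b-3p lie at chr4:112648186-112648208 and chr4:112648489-112648511 on the minus strand, let-7g-5p at chr3:52268336-52268357 on the minus strand, let-7i-5p at chr12:62603691-62603712 and miR-200b-3p at chr1:1167160-1167181 on the plus strand.
hsa-miR-302a-3p: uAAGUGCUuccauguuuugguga
hsa-miR-302b-3p: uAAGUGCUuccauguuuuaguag
hsa-let-7g-5p: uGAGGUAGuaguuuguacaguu
hsa-let-7i-5p: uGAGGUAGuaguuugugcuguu
hsa-miR-200b-3p: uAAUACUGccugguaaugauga

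The arrays separated by state. Pearson correlations across genes were 0.99 to 0.992 among embryoid body arrays and 0.981 to 0.989 among pluripotent arrays, against 0.884 to 0.891 between states. The first principal component held 86.5% of the variance and the second 5.72%. The median SD of a gene over 3 arrays was 0.101 in embryoid bodies and 0.134 in pluripotent cells on the log2 scale. All levels below are log2 intensities, and all differences are embryoid bodies minus pluripotent cells, so a difference of 1 is a 2-fold higher intensity in embryoid bodies.

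Of 13518 genes tested with limma, 6487 (48%) passed an adjusted p of 0.05, with 3277 (24.2%) higher and 3210 (23.7%) lower in embryoid bodies. Counts of list members below stand against these shares. The arrays of both states did not overlap for 57.7% of the genes tested, and 47.1% had no overlap and passed the threshold. A 2-fold or larger difference was found for 1309 genes (9.68%), of which 613 (4.53%) were higher and 696 (5.15%) lower. Probe sets without a single gene symbol were only counted, and 33.9% of those with several symbols and 6.06% of those with none passed. At 4-fold or more the counts were 124 higher and 171 lower, and at 8-fold or more 40 and 50. The median difference over all genes tested was -0.031. The filter on low intensity kept genes above the 40th percentile of an array on at least 3 arrays, so a gene that passed it through 1 state alone had to differ. This holds for each tested gene below whose 3 readings in 1 state all lie under 5.26, the lowest 40th percentile of the 6 arrays. There were 220 genes above that percentile on every embryoid body array and on no pluripotent array, and 312 genes the other way round.

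**Figure D1:**
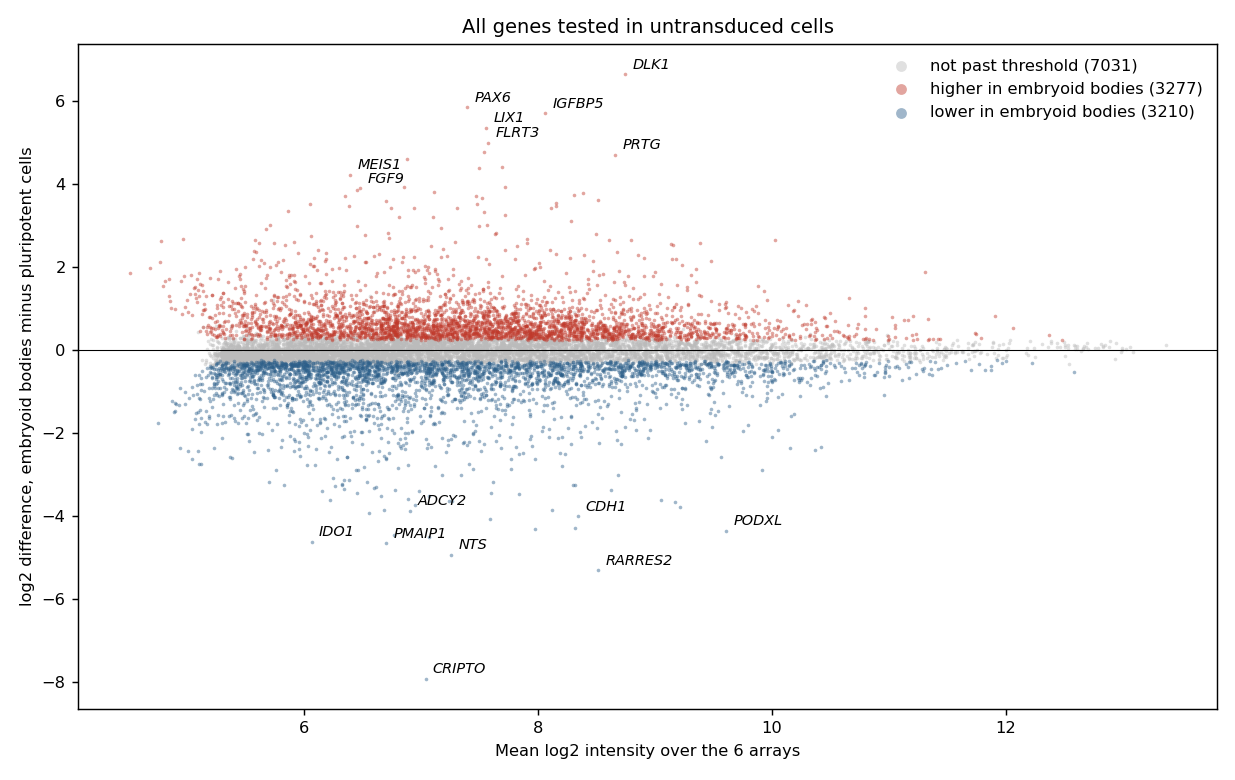
Each point is 1 of the 13518 genes tested, placed by its mean log2 intensity over the 6 arrays and its log2 difference, embryoid bodies minus pluripotent cells. The 3277 genes past the threshold and higher are red, the 3210 lower are blue, and CRIPTO at -7.91 and DLK1 at 6.65 are the outermost points.

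The genes given as markers of the state differed strongly. PAX6, a transcription factor of neural and eye development, read 10.32, 10.26 and 10.40 in embryoid bodies, against 4.35, 4.72 and 4.33 in pluripotent cells. That is a difference of 5.85 ± 0.12 (SE; limma adjusted p = 3.48e-09), and the exact permutation test gave p = 0.1, the smallest that 3 against 3 arrays allow. No array of one state came near the other. PAX6 lay at the 26.5 percentile in pluripotent cells and passed the filter through embryoid bodies alone. It therefore had to differ, and neither p-value is independent support.
SIX3, a forebrain and eye field factor, read 9.81, 10.11 and 9.79 in embryoid bodies, against 5.26, 5.73 and 5.50 in pluripotent cells (4.41 ± 0.14). LHX2, which acts in the same field, read 9.83, 9.65 and 9.61, against 5.04, 5.15 and 5.71 (4.40 ± 0.16). The 2 genes thus differed by like amounts, without overlap.
DLK1, an imprinted gene for a non-canonical NOTCH ligand, held the largest increase of all genes tested. It read 12.08, 12.07 and 12.08 in embryoid bodies, against 4.93, 5.54 and 5.81 in pluripotent cells (6.65 ± 0.18, adjusted p = 5.59e-09). PODXL, the sialomucin that carries the TRA-1-60 and TRA-1-81 epitopes of pluripotent cells, read 7.51, 7.37 and 7.44 in embryoid bodies, against 11.78, 11.92 and 11.64 in pluripotent cells (-4.34 ± 0.10). In embryoid bodies PODXL still lay at the 72.5 percentile of the array, so its signal did not end at the low range.

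**Figure D2:**
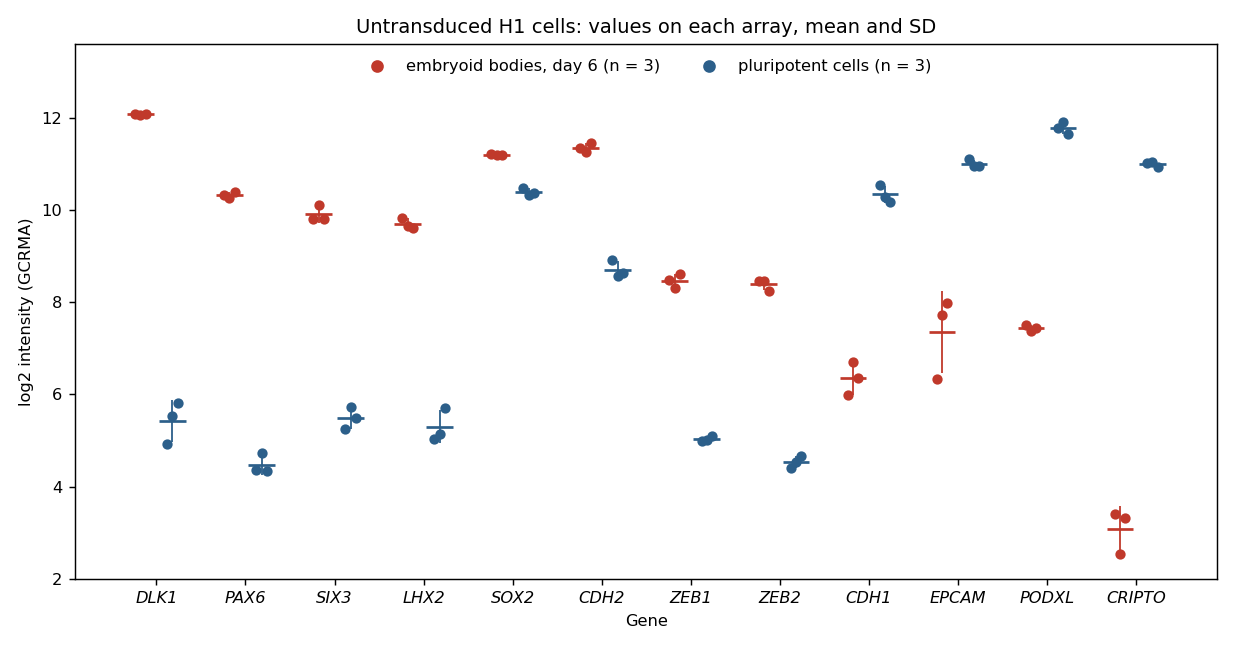
Points are log2 intensities on single arrays of 12 genes, embryoid bodies in red and left, pluripotent cells in blue and right, with horizontal bars for means and vertical bars for SD (n = 3 each). The arrays of the 2 states do not overlap for any of these genes, and EPCAM in embryoid bodies has the widest spread, 6.33 to 7.99.

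Among the other large increases, IGFBP5, a secreted insulin-like growth factor binding protein, read 10.96, 10.83 and 10.96 in embryoid bodies, against 5.44, 4.83 and 5.34 in pluripotent cells (5.71 ± 0.15). PRTG, an adhesion protein of the early neural tube, rose by 4.72, GREB1L, a gene tied to retinoic acid signalling, by 4.77, and FLRT3, a fibronectin leucine rich membrane protein, by 5.01. MEIS1 (4.23), a TALE homeobox factor, CDH11 (3.94), a mesenchymal cadherin, and LRP2 (3.93), the megalin receptor of neuroepithelium, were also among the 15 largest. In 11 of these 15 genes the pluripotent mean lay below the 40th percentile, so the size of the change there depends on how low signals were estimated.

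The largest decrease was that of CRIPTO, a co-receptor of NODAL, with readings of 3.41, 2.53 and 3.32 in embryoid bodies, against 11.01, 11.05 and 10.93 in pluripotent cells (-7.91 ± 0.20). Its embryoid body signal lay at the 7.73 percentile of the array. In 8 of the 15 largest decreases the embryoid body mean lay below the 40th percentile, so their size and order depend on low signals. RARRES2, which encodes the chemoattractant chemerin, fell by 5.30, NTS, the neurotensin gene, by 4.92, and GAL, the galanin gene, by 4.30. IDO1, which breaks down tryptophan, fell by 4.61, and PMAIP1, a BH3-only cell death gene, by 4.64. FLT1, a receptor of vascular endothelial growth factor, fell by 4.44, and CD9, a tetraspanin of the stem cell surface, by 4.27.

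Among pluripotency regulators 16 of 26 tested members fell and 3 rose, with a median difference of -0.91, against -0.031 over all genes. POLR3G, an RNA polymerase III subunit enriched in stem cells, read 7.07, 7.18 and 7.52 in embryoid bodies, against 11.04, 10.91 and 10.60 in pluripotent cells (-3.59 ± 0.15). ZFP42 (-2.78), PRDM14 (-2.45) and CRIPTO completed the 4 largest. The list did not move as 1 block. LIN28A, which blocks let-7 maturation, stayed at 10.99, 10.93 and 11.02, against 11.25, 11.19 and 11.05 (-0.18, adjusted p = 0.139), and LIN28B (0.20) and SALL4 (0.15) did not pass either. The 3 members that rose, OTX2 (1.19), SOX2 (0.81) and SALL2 (0.72), also act in neural cells. SOX2 read 11.21, 11.20 and 11.19 in embryoid bodies, against 10.48, 10.32 and 10.36 in pluripotent cells. POU5F1 and NANOG, whose probe sets also carry the symbols of related copies, were not analysed here. In bulk RNA, fewer cells of a type and less RNA per cell cannot be told apart.

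Of 18 tested surface proteins of stem cells, 14 fell, and PTPRZ1, a receptor phosphatase of neural progenitors, was the 1 that rose (0.95). Their median difference was -1.21. Among epithelial junction and splicing genes 19 of 27 fell and 0 rose (median -0.90). CDH1, which encodes E-cadherin, read 5.99, 6.70 and 6.35 in embryoid bodies, against 10.55, 10.29 and 10.18 in pluripotent cells (-3.99 ± 0.17). CLDN7 (-3.43) and CLDN6 (-2.89), tight junction claudins, fell as well. EPCAM, an epithelial adhesion molecule, read 6.33, 7.72 and 7.99 in embryoid bodies, against 11.10, 10.95 and 10.94 in pluripotent cells (-3.65 ± 0.34), the first embryoid body array being the lowest. The scaffold genes TJP1 (-0.09), PARD3 (0.00) and JUP (-0.10) did not pass the threshold.

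The opposite pattern was seen for several genes of mesenchyme. ZEB1, a repressor of CDH1, read 8.47, 8.30 and 8.60 in embryoid bodies, against 4.99, 5.02 and 5.11 in pluripotent cells (3.42 ± 0.10). ZEB2 read 8.46, 8.46 and 8.24, against 4.41, 4.53 and 4.66 (3.86 ± 0.11). Both passed the filter through embryoid bodies alone, so both had to be higher. The list of mesenchyme and matrix genes was nevertheless mixed, with 7 of 18 higher and 6 lower: TAGLN (-1.97), an actin-binding protein, and THY1 (-2.10) fell, while TWIST1 (-0.08) and COL1A2 (-0.02) did not pass. Cadherins exchanged, with 6 of 11 higher and 2 lower. CDH2, the N-cadherin of neural tissue, rose by 2.65, CDH6 by 2.77 and CDH20 by 2.75, while CDH1 and CDH3 (-2.61) fell. CDH6 and CDH20 passed the filter through embryoid bodies alone and had to be higher.

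Of 22 tested eye field and forebrain genes, 16 (72.7%, against 24.2% of all genes) rose and 0 fell (median 1.62). The 16 all rose at least 2-fold. Members that passed the filter through embryoid bodies alone, PAX6 and DACH1 among them, had to be higher, and the 16 include them. DACH1, a cofactor of eye development, read 9.22, 9.13 and 9.20 in embryoid bodies, against 4.35, 4.70 and 4.69 in pluripotent cells (4.60 ± 0.11). Below PAX6, DACH1, SIX3 and LHX2, the rest of the 16 lay between 1.00 for HESX1 and 3.72 for MEIS2. The 6 that did not pass were VAX1, VAX2, DLX1, DLX2, TBX2 and EMX1, with differences of -0.23 to 0.61. The count was 9 without any one of the embryoid body arrays when the intensity filter was applied again to the arrays left, and 16 or 17 in fits without single arrays that kept the genes tested. The list was drawn up with earlier results of these data known, and its direction is not independent evidence.

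Among pan-neural progenitor genes 24 of 35 rose and 6 fell (median 0.81). The shares were 68.6% and 17.1%, against 24.2% and 23.7% of all genes. This list too was drawn up with earlier results of these data known. LIX1 read 10.28, 10.24 and 10.20 in embryoid bodies, against 4.58, 5.28 and 4.78 in pluripotent cells (5.36 ± 0.16). ZNF521, a zinc finger factor of early neural cells, rose by 2.81. SOX1, a classical neural plate factor, read 6.09, 6.15 and 5.89, against 5.83, 5.67 and 5.62 (0.34 ± 0.11, adjusted p = 0.0238), and the call was lost without embryoid body replicate 1 or 2 or pluripotent replicate 2 or 3 (adjusted p = 0.0585 to 0.0923). SOX3 did not pass (0.24). POU3F4 (-1.74), SLC1A3 (-1.59), PROM1 (-0.83), GPM6B (-0.52), ZIC5 (-0.43) and GFAP (-0.33) fell.

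Among midbrain and hindbrain genes 3 of 13 rose, PAX2 (1.10), PAX8 (1.09) and FGF8 (0.60), and 2 fell (median -0.06). The share that rose, 23.1%, was near the 24.2% of all genes, while EN1 (0.07), EN2 (-0.09) and GBX2 (-0.15) did not pass. Only 7 of 27 HOX genes with a usable probe set entered the test, where 0 rose and 2 fell slightly, HOXD1 (-0.39) and HOXD9 (-0.27).

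Neuronal genes were mixed, with 4 of 19 higher and 8 lower (median 0.06). The share higher, 21.1%, was near the 24.2% of all genes, while 42.1% were lower, against 23.7%. MAP2, a microtubule protein of dendrites, rose by 2.33 and DCX, a microtubule protein of migrating neuroblasts, by 1.13. NEFM (-1.28), a neurofilament, and RBFOX3 (-1.17), the NeuN antigen, fell, and STMN2 (0.30) did not pass.

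Of 17 neural crest genes tested, 9 rose and 3 fell (median 0.39). These shares, 52.9% and 17.6%, stand against 24.2% and 23.7% of all genes. SOX5, a SOX factor, read 9.04, 9.01 and 9.01 in embryoid bodies, against 5.01, 5.17 and 5.43 in pluripotent cells (3.82 ± 0.11). TFAP2A read 6.21, 6.35 and 6.19, against 4.38, 5.08 and 4.61 (1.56 ± 0.16). SNAI2, a crest repressor of epithelial genes, read 7.38, 7.21 and 7.15, against 6.71, 6.39 and 6.61 (0.68 ± 0.11). SOX10 read 6.06, 6.06 and 5.95, against 5.81, 5.82 and 5.81 (0.21 ± 0.09, adjusted p = 0.0726), and PAX3, at 4.99, 4.76 and 4.83 against 4.45, 4.47 and 4.50, did not enter the test. FOXD3 (-1.17), a crest and stem cell factor, and ETS1 (-2.80) fell. The counts include members that passed the filter through 1 state alone. Among them, TFAP2A and TFAP2B passed through embryoid bodies and had to rise. FOXD3 and ETS1 passed through pluripotent cells and had to fall.

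Markers of other germ layers were mixed. TBXT, the primitive streak factor, lay at 5.15, 5.19 and 5.08 in embryoid bodies, against 5.33, 5.60 and 5.25 in pluripotent cells, and did not enter the test. SOX17, an endoderm factor, did not pass (0.01, adjusted p = 0.949). Of 13 primitive streak and early mesoderm genes 1 rose, APLNR (0.85), and 4 fell, and of 10 endoderm and yolk sac genes 3 rose, CXCR4 (1.54), FOXA1 (0.95) and PRDM1 (0.61), and 2 fell. Of 15 surface ectoderm and placode genes 3 rose and 4 fell (median -0.02), with EYA1 (1.94) and DLX5 (1.63) higher and GRHL2 (-2.16) lower, and of 7 trophoblast and amnion genes 3 rose, IGFBP3 (1.96), TFAP2A (1.56) and HEY1 (0.49), and 2 fell. The shares of endoderm and trophoblast genes that rose, 30% and 42.9%, stand against 24.2% of all genes. They rest on 10 and 7 genes, while 9 and 11 more lay too low to test. Among markers of these fates, CDX2 (-0.33) fell, FOXA2 (0.07) did not pass, and AFP, CGA and GATA3 did not enter the test. The shares of surface ectoderm and placode genes, 20% higher and 26.7% lower, were near those of all genes, 24.2% and 23.7%. Genes of lateral, cardiac, endothelial and blood cells fell in 7 of 15 cases and rose in 2, led by FLT1 and by KDR, a vascular receptor also present on pluripotent cells, which read 4.98, 4.96 and 4.88 in embryoid bodies, against 8.77, 8.04 and 7.99 (-3.32 ± 0.18). FLT1 and KDR passed the filter through pluripotent cells alone, so both had to fall.

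**Figure D3:**
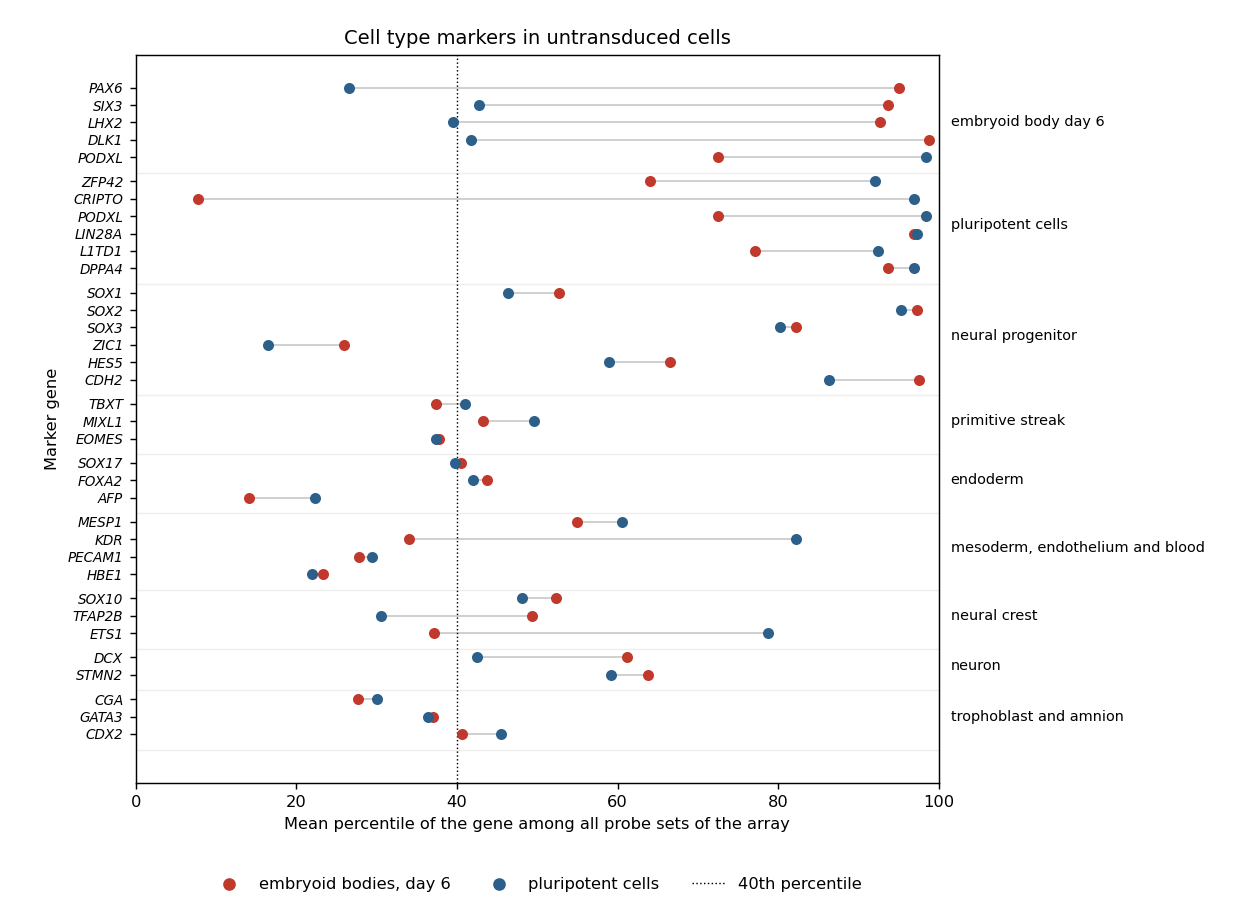
Each row is a marker gene, placed by its mean percentile among all probe sets of an array, embryoid bodies in red and pluripotent cells in blue, with the dotted line at the 40th percentile used as filter. PAX6, SIX3, LHX2 and DLK1 lie at the 92.7 percentile or above in embryoid bodies, while AFP, PECAM1, HBE1 and CGA lie below the 40th in both states.

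Of the signalling lists, hedgehog genes showed the widest rise, with 12 of 16 higher and 1 lower (median 1.23). These shares, 75% and 6.25%, stand against 24.2% and 23.7% of all genes. SCUBE1, a protein that helps release hedgehog ligands, read 8.96, 9.05 and 9.18 in embryoid bodies, against 5.82, 6.65 and 6.22 in pluripotent cells (2.83 ± 0.18). BOC (2.25), a hedgehog co-receptor, and GLI3 (1.91), a transcriptional effector that mostly represses, also rose. GLI1, itself a target of the pathway, was the 1 that fell (-1.27), and the ligand SHH did not pass (-0.17).

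Among NODAL and activin genes 10 of 21 fell and 4 rose (median -0.20). The shares were 47.6% and 19%, against 23.7% and 24.2% of all genes. Beside CRIPTO, the transcriptional partner FOXH1 fell by 1.55 and the ligand NODAL by 0.90, while the antagonist FST rose by 1.44. INHBE, which encodes an activin subunit, read 5.21, 5.05 and 4.77, against 7.30, 8.33 and 8.03 (-2.87 ± 0.23).

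Of 17 FGF ligands and receptors 8 fell and 3 rose (median -0.32). That is 47.1% and 17.6%, against 23.7% and 24.2% of all genes. FGF9 read 8.49, 8.40 and 8.42 in embryoid bodies, against 4.30, 4.41 and 4.90 in pluripotent cells (3.90 ± 0.14), whereas FGF2, the growth factor of stem cell media, fell by 0.87. Feedback genes of the ERK cascade went both ways, 8 of 21 higher (38.1%) and 9 lower (42.9%). FLRT3 rose by 5.01, and PHLDA1 (-4.06), IER3 (-2.48) and the ERK phosphatase DUSP6 (-2.09) fell.

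Of 29 WNT ligands and receptors 10 rose and 5 fell (median 0.10), led by LGR5 (2.34), a receptor of R-spondins, and WLS (2.25), which carries WNT proteins to the cell surface. The shares, 34.5% higher and 17.2% lower, stand against 24.2% and 23.7% of all genes. Among 17 WNT targets and antagonists 6 rose (35.3%) and 5 fell (29.4%), with a median of 0.02. The antagonist FRZB rose by 3.74 and the effector LEF1 by 3.47, AXIN2, a common target, did not pass (0.17), and TCF7L1 fell by 1.41. BMP genes were higher in 11 of 24 cases (45.8%) and lower in 3 (12.5%), with a median of 0.21. In a fit of 18 arrays 5 were higher, and 9 without both arrays numbered 2 of the KBTBD8 shRNA, which lay with the other state. NOTCH genes were higher in 13 of 26 cases (50%) and lower in 4 (15.4%), with a median of 0.36. DLL1 (1.96), a NOTCH ligand, rose and HEY2 (-2.09), a target, fell. Retinoid genes rose in 7 of 13 cases (53.8%) and fell in 4 (30.8%), among them NR2F1 (2.99), a nuclear receptor of the brain, and DHRS3 (-2.67), a retinal reductase.

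Of 15 imprinted genes 10 rose and 1 fell, GRB10 (-0.65), with a median of 1.00. NNAT, a membrane protein of the developing brain, read 10.23, 10.29 and 10.26 in embryoid bodies, against 8.46, 8.04 and 8.12 in pluripotent cells (2.05 ± 0.12). MEG3, a noncoding RNA of the same domain as DLK1, rose by 1.30 and PEG10 by 1.26. DLK1 stands in this list and in that of NOTCH genes. Of 15 genes of the insulin-like growth factor axis 5 rose and 2 fell (median 0), among them IGFBP5 and IRS4 (2.52). Of 12 reference genes 2 rose (16.7%) and 3 fell (25%), against 24.2% and 23.7% of all genes. TFRC (-1.40) was among those that fell, while GAPDH (-0.05) and HPRT1 (-0.04) did not pass.

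Of 27 targets of ATF4, the factor of the integrated stress response and of amino acid supply, 20 fell and 0 rose (median -0.90). SLC7A5, an amino acid transporter, read 6.94, 7.03 and 6.84 in embryoid bodies, against 10.36, 10.52 and 10.06 in pluripotent cells (-3.37 ± 0.13). VLDLR and CHAC1 each fell by 2.13. The medium differed between states, and its part in this was not tested.

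Genes of ribosome biogenesis fell in 24 of 48 cases and rose in 3, with a median of -0.30. DDX21, a nucleolar RNA helicase, read 8.51, 8.55 and 8.67 in embryoid bodies, against 9.95, 9.90 and 9.75 in pluripotent cells (-1.29 ± 0.10) and was the 1 member past 2-fold. With all 18 arrays in the fit 14 of these genes fell. That fit includes both arrays numbered 2 of the KBTBD8 shRNA, which lay with the other state. Leaving them out, a choice made after seeing the data, gave 28. TCOF1, a partner of KBTBD8 in the nucleolus, fell by 0.56 and NOLC1 by 0.33, while NPM1 (-0.10), FBL (0.00) and UBTF (0.00) did not pass. KBTBD8 itself read 4.54, 5.06 and 4.07, against 6.50, 6.43 and 6.03 (-1.76 ± 0.22, adjusted p = 0.000101, exact permutation p = 0.1). It lay at the 27.7 percentile in embryoid bodies and passed the filter through pluripotent cells alone, so it had to differ.

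Sterol synthesis genes fell in 12 of 19 cases with 0 higher (median -0.36), SC5D (-1.53) most. Hypoxia and glycolysis genes rose in 17 of 29 cases and fell in 6 (median 0.38), with KDM3A (1.91) and P4HA1 (1.86) rising and ADM (-1.51) falling. With all 18 arrays in the fit, 6 of them rose in place of 17. In that fit 7 sterol genes fell in place of 12. Without both arrays numbered 2 of the KBTBD8 shRNA, 18 hypoxia and glycolysis genes rose and 13 sterol genes fell. Embryoid bodies are aggregates and pluripotent cells were adherent; whether oxygen differed was not tested.

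Interferon and antigen presentation genes fell in 9 of 14 cases and rose in 2 (median -0.65). PSMB8 (-2.06), PSMB9 (-1.79) and TAP1 (-1.93), which produce and transport peptides for class I molecules, fell together with IDO1. Of 12 neuropeptides and chemokines tested 9 fell (75%, against 23.7% of all genes) and 2 rose (median -2.15). CXCL12 (-3.24), a chemokine, was among those that fell. A member that passed the filter through pluripotent cells alone, as NTS did, had to fall, and 7 of 19 members lay too low to test.

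Cell cycle genes moved in both directions. Of 28 replication genes 7 rose and 6 fell (median 0.04), and of 28 mitosis genes 6 rose and 4 fell (median 0.06), none by 2-fold. The replication shares, 25% higher and 21.4% lower, were near those of all genes, 24.2% and 23.7%, and the mitosis shares were 21.4% and 14.3%. MKI67 (0.34) and PCNA (0.12) did not pass. Of 12 cell cycle inhibitors and D cyclins with their kinases 6 rose and 1 fell (median 0.22), CDK6 falling by 1.39 and RBL1, a relative of the retinoblastoma protein, rising by 0.96. Of 24 p53 targets and cell death genes 9 fell and 3 rose (median -0.21), among them BCL2L11 (1.88), a BH3-only gene. Of 13 DNA methylation enzymes 3 rose and 3 fell (median -0.04), 23.1% each way and near the shares of all genes. DNMT3B, a de novo DNA methyltransferase, fell by 1.32 and TET2, which oxidises methylcytosine, rose by 1.45.

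**Figure D4:**
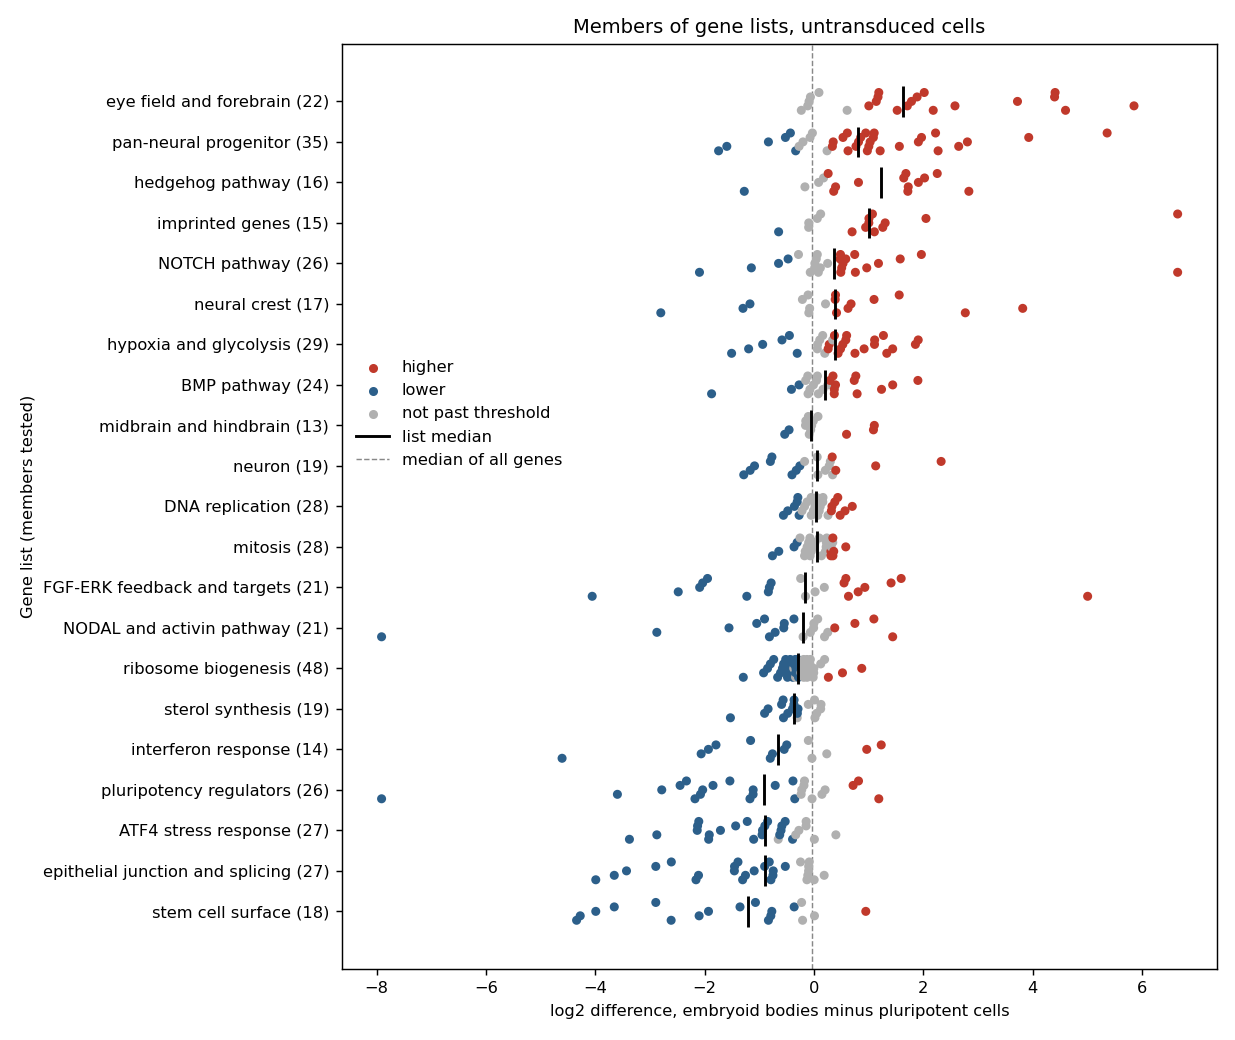
Points are the log2 differences of the members of 21 gene lists, embryoid bodies minus pluripotent cells, coloured by the threshold, with black bars for list medians and a dashed line at the median of all genes, -0.031. Eye field and forebrain genes reach 5.85, and stem cell surface genes have a median of -1.21.

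Probe sets named for microRNA genes read precursor or host transcripts, and mature microRNAs were not measured. Of 43 microRNA genes tested 9 fell and 4 rose, while 23.7% of all genes fell and 24.2% rose. Falls were thus no more frequent than among all genes. Of the 8 microRNA genes that were listed for their known roles, with earlier results of these data known, 4 fell and 2 rose. MIR302A read 4.17, 5.48 and 4.80 in embryoid bodies, against 9.86, 9.18 and 8.91 in pluripotent cells (-4.49 ± 0.31). MIR302B, which shares its seed with miR-302a above, read 4.03, 4.35 and 3.96, against 7.94, 6.89 and 7.04 (-3.17 ± 0.24). MIR302B passed the filter through pluripotent cells alone, so it had to fall. The genes of the let-7 pair rose by smaller amounts, MIRLET7I by 0.74 (adjusted p = 0.000872) and MIRLET7G by 0.58 (adjusted p = 0.00775), and MIR200B fell by 0.42 (adjusted p = 0.0169). The largest increases were outside that list, MIR19B2 (1.75) and MIR186 (0.92), both singled out after their values were seen. MIR19B2 read 4.21, 4.24 and 4.52 in pluripotent cells and passed the filter through embryoid bodies alone, so it had to rise. MIR21 also fell (-2.20), and MIR219A1 (-0.30) and MIR196A1 (-0.09) did not pass.

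The change with differentiation was set against that of cells with the control shRNA in 1 model of 12 arrays. The difference of the 2 changes passed the threshold for 2292 of 14001 genes (16.4%), 1154 (8.24%) with a more positive and 1138 (8.13%) with a more negative change in untransduced cells. Of the 6487 genes changed in untransduced cells, 1598 (24.6%) were among them.
SIX3 rose by 4.41 in untransduced cells and by 1.76 in control shRNA cells, a difference of 2.65 ± 0.17 (limma adjusted p = 1.22e-07). LHX2 rose by 4.40 and by 1.27, a difference of 3.13 ± 0.23, and PAX6 by 5.85 and by 5.02, a difference of 0.83 ± 0.18 (adjusted p = 0.00559). Of 19 neural crest genes in that test, 14 (against 8.13% of all genes) had a more negative change in untransduced cells, 2 a more positive one, SOX5 (0.60) and B3GAT1 (0.55), and 3 did not pass. Their median difference was -1.64, against 0.002 over all genes. Of the 19, 17 were tested in the 6 untransduced arrays. The rest, PAX3 below among them, passed the filter only with the control shRNA arrays added, and they are included in these counts. The list was drawn up with earlier results of these data known, so its direction is not independent evidence.
PAX3 averaged 4.86 in untransduced embryoid bodies and 4.47 in untransduced pluripotent cells, against 9.41 and 4.87 in control shRNA cells, a difference of changes of -4.15 ± 0.16 (adjusted p = 2e-09). It was not tested in the 6 untransduced arrays and entered this test through the control shRNA embryoid bodies, where it was high, so it had to differ. TFAP2B (-4.60), SNAI2 (-3.73), TFAP2A (-2.89) and SOX10 (-2.0) shared that direction. SOX2 rose in untransduced cells and was at -0.0002 in control shRNA cells (adjusted p = 0.999), a difference of 0.82 ± 0.12. Array medians were 5.85 to 5.95 in untransduced arrays and 5.97 to 6.12 in the 12 transduced arrays, and whether the virus or array handling set these differences cannot be told apart. With all 18 arrays in the fit the count was 751, and the interactions of PAX6 (adjusted p = 0.855), DLK1 (0.718), SIX3 (0.477), TFAP2A (0.294) and LHX2 (0.0976) missed the threshold. That fit includes both arrays numbered 2 of the KBTBD8 shRNA, each of which correlated best with control shRNA arrays of the other state (0.974 and 0.973).

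**Figure D5:**
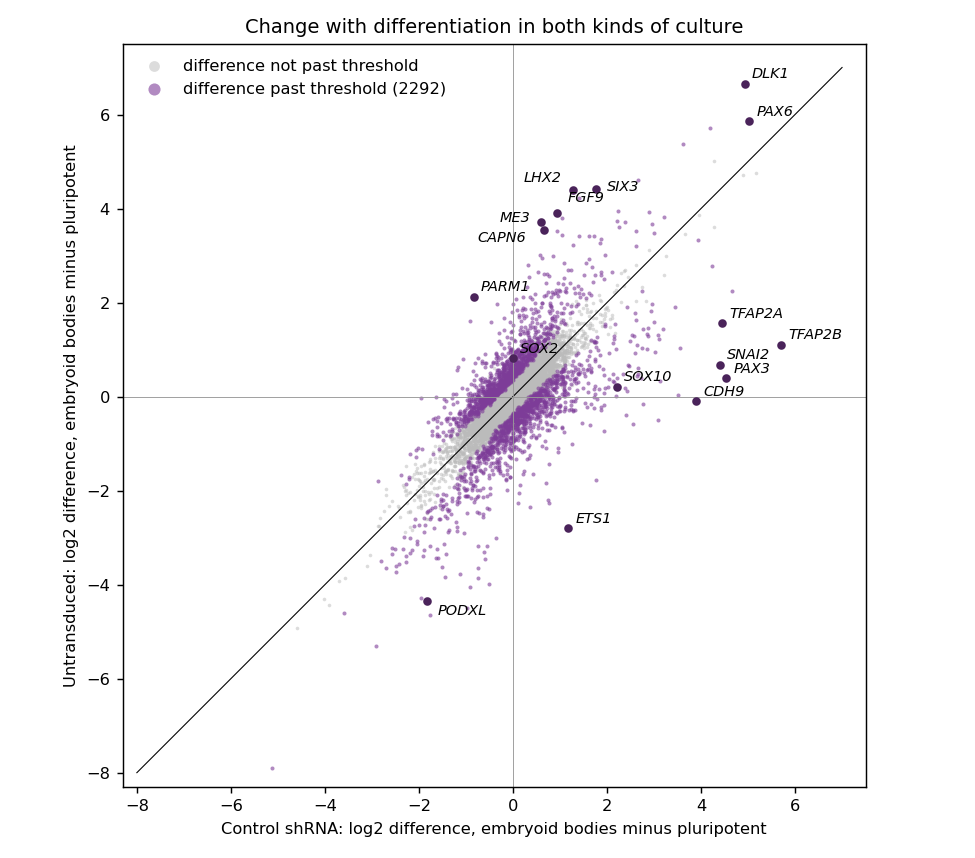
Each point is a gene of the 14001 tested, its log2 difference in untransduced cells on the vertical axis and that in control shRNA cells on the horizontal axis; purple marks the 2292 whose interaction passed the threshold, and the diagonal marks equal change. SIX3 and LHX2 lie above the diagonal, and PAX3, TFAP2B, SNAI2 and SOX10 below it.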

How the data were processed

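The authors deposited log2 intensities. The submitters' processing notes name GCRMA without a version. Base 2 was inferred from how GCRMA reports values and from their span, and whether the 18 arrays were normalized together is not given in the sources used here. Depth has no counterpart on arrays, and their number limits the precision. Of 33297 probe sets, 19460 carried 1 gene symbol, 1754 several and 12083 none. Symbols were updated through RefSeq (GRCh38.p14), with 28 of 18394 genes without an entry, and 24 probe sets of the Y chromosome or XIST were left out. For a gene with several probe sets (768) the one with the highest mean was used. Tested were the 13518 genes whose level passed the array's 40th percentile on 3 or more of 6 arrays, with limma 3.58.1 in R 4.3.3, lmFit and eBayes, and Benjamini-Hochberg adjustment over all of them. Errors after ± beside a difference are standard errors. The procedure was tested on simulated data. The interaction was fitted on 12 arrays with 4 group means. Probe sets with several symbols (33.9% of 1283 called) or none (6.06% of 4968) were only counted. Alternatives changed the filter, normalization, probe set rule, variance model and arrays fitted, added a replicate block and left out single arrays.

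The members, the 40 lists, the tests and the alternatives were chosen with earlier results of these data known. Named were 5 given markers, the 15 largest changes each way without overlap between states, the 4 largest of each list, any member in a clause on those that did not pass, 10 developmental genes, and the 5 most variable genes of each state. Members forming a count of 5 or fewer were named after their values were seen, as were other list members quoted beside a count. Tools were Python 3.11.15, pandas 2.3.3 and matplotlib 3.10.9.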

Additional observations from a re-analysis of the deposited data

Results flagged for a closer look

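The change with differentiation differed between untransduced and control shRNA cells for 2292 genes, by the interaction term of a model fitted to 12 arrays. The untransduced change was the more positive for LHX2 (3.13), SIX3 (2.65), DLK1 (1.72), PAX6 (0.83) and SOX2 (0.82). It was the more negative for PAX3 (-4.15), SNAI2 (-3.73), TFAP2A (-2.89), PODXL (-2.51) and SOX10 (-2.0). The 5 largest differences upward also took in ME3 (3.13), FGF9 (2.96), PARM1 (2.96) and CAPN6 (2.89), and downward TFAP2B (-4.60), CDH9 (-4.0) and ETS1 (-3.97). CDH9 averaged 8.27 in control shRNA embryoid bodies and 3.97 to 4.37 in the other groups of the test. Like PAX3, it entered the test through the group where it was high, so it had to differ. FGF9 averaged 8.44 in untransduced embryoid bodies and 4.42 to 5.36 in the other groups, so its difference rests on low signals as well. Untransduced and transduced arrays also differed in median intensity, and the part of array handling was not tested.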

How the results depend on the processing

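The count of changed genes stayed within 1.5 times of 6487 under all 23 alternatives, from 5166 to 7240, and no called gene of the 158 named changed direction. A replicate block gave 6168 changed genes, 1310 by 2-fold or more and 2094 in the interaction. Arrays with the same number deviated with correlations of -0.119, 0.009 and -0.073, so the numbers were not taken to pair them. With 18 arrays the interaction count was 751; both arrays numbered 2 of the KBTBD8 shRNA, which lay with the other state, enter that fit. Leaving them out, an alternative chosen after seeing the data, gave 2398, and leaving out single arrays gave 1737 to 2788. In the fit of 18 arrays the interactions of PAX6, SIX3, LHX2, DLK1 and TFAP2A missed the threshold.

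Leaving out single arrays was first run with the intensity filter applied again to the 5 arrays left, and then, after those counts were seen, with the set of genes tested held fixed. The eye field and forebrain count of 16 fell to 9 without any one of the embryoid body arrays under the first scheme, in which a gene read in embryoid bodies alone can no longer pass on 3 arrays, and was 16 under the second, or 17 without pluripotent replicate 3. SOX1, HOXD1, HOXD9, MIXL1, MESP1, APOA1, UHRF1, HSPA6 and SNORD14E lost their call without 1 array or another. SOX17, not called in any such fit, ranged from -0.036 to 0.042, with -0.007 without embryoid body replicate 2. SNORD75, not called with 6 arrays, ranged from -0.194 to 0.88, with -0.163 without pluripotent replicate 2, and passed at 0.88 without pluripotent replicate 1 (adjusted p = 0.0078). Of 1724 list counts under alternatives, 189 moved by over 1.5 times, 11 of them from counts of 10 or more. Besides the 3 for the eye field, these were, with 18 arrays, ribosome biogenesis lower (14), sterol lower (7), hypoxia higher (6) and BMP higher (5), with the 60th percentile filter BMP higher (7) and NODAL lower (6), and with the filter applied again BMP higher (6, without embryoid body replicate 1) and NODAL lower (6, without pluripotent replicate 3). With 16 arrays, without both numbered 2 of the KBTBD8 shRNA, the counts were ribosome biogenesis 28, sterol 13, hypoxia 18 and BMP 9.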

Other observations

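Among the 5 most variable genes of the embryoid bodies, 3 stood out on the same array. HSPA6, a heat shock protein made under strong stress, read 6.38, 8.16 and 6.06 in embryoid bodies, against 5.30, 5.73 and 5.51 in pluripotent cells. SNORD14E read 6.38, 8.54 and 6.38, against 6.45, 4.65 and 4.09, and SNORD14C read 6.63, 8.50 and 6.56, against 6.93, 5.76 and 5.03. The second embryoid body array was the high one for each. Other heat shock genes, chosen after these values were seen, had no rise of that size there. HSPA8 read 11.77, 11.78 and 11.84 in embryoid bodies and HSPH1 9.80, 9.80 and 9.93. DNAJB1 (8.76, 9.02 and 8.75) and BAG3 (7.24, 7.45 and 7.16) were also highest on the second array, by less. Of 106 snoRNA genes tested, 83 were highest on embryoid body replicate 2 among the embryoid body arrays, and 76 were highest on pluripotent replicate 1 among the pluripotent arrays. SNORD75 was highest on pluripotent replicate 1 but on embryoid body replicate 3. It read 6.59, 7.30 and 7.44 in embryoid bodies, against 8.35, 6.26 and 6.20 in pluripotent cells. What set these arrays apart was not tested.

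Of 9 SNORD116 copies tested, small nucleolar RNAs of an imprinted cluster on chromosome 15, 8 fell, with a median difference of -0.63 and a range of -1.64 to 0.36. This group was also chosen after its values were seen. The copies are nearly identical, so probes may read several of them, and they are not independent.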
